A study of Mus musculus with 2 samples.

Results

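The Mir322 cluster is a group of microRNA (miRNA) hairpin genes on the mouse X chromosome, consisting of Mir322, Mir503, Mir351, Mir542, Mir450-2, Mir450-1 and Mir450b. Its members were chosen by symbol and not by level: 5 were listed by name, and a further 2, Mir450-2 and Mir450-1, were added because the description of the cluster covers every Mir450 hairpin. They are 7 of the 2202 miRNA genes counted. Total RNA of adrenal glands from female B6CASTF1/J mice, the offspring of a cross of 2 strains, was taken at the age of 2 months for microRNA sequencing. There was 1 group with 2 replicates and no treatment or second group was labelled, so no conditions could be compared. The tissue labels number the replicates as different females but both carry the same donor label, so an SD given here measures the spread between samples, which may in part be technical.

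A miRNA is cut from a hairpin precursor, and bases 2 to 8 of the mature strand, the seed, do most of the pairing with target mRNAs. Clustered hairpins are usually cut from a common primary transcript. The Mir322 cluster is known for falling in several organs of the mouse as postnatal growth ends, and miR-322, the counterpart of human miR-424, belongs with miR-503 to the extended miR-15/16 family, whose targets include cyclins and other cell cycle genes. In humans, miR-503 has been described at raised levels in adrenocortical carcinoma.

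All 7 members were matched to RefSeq mature miRNAs (build GRCm38.p6, the assembly called mm10), which list 13 distinct mature RNAs of 21 to 24 bases for the cluster. The strands below are shown because their seeds decide which other genes of the adrenal gland the cluster can be set beside. They run 5′ to 3′ with the seed in capitals.
miR-322-5p: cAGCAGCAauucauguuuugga
miR-503-5p: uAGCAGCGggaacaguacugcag
miR-351-5p: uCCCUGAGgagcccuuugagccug
miR-542-5p: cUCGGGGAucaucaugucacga
miR-542-3p: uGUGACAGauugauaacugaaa
miR-450a-5p: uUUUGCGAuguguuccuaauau
miR-450b-5p: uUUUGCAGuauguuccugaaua
The seeds of miR-322-5p and miR-503-5p share bases 2 to 7 and differ at base 8. Over the whole strand, 11 of 22 positions of the pair are identical. The miR-450a-5p and miR-450b-5p strands are alike at 15 of 22 positions but have different seeds. The 3p strands of Mir450-1 and Mir450b, not shown here, have the same seed. Among the 1679 mature RNAs in the RefSeq table, 9 others carry the whole seed of miR-322-5p and 4 others that of miR-351-5p, whereas 0 others carry the seed of miR-503-5p, miR-542-3p, miR-450a-5p or miR-450b-5p.

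The relatives of miR-322, miR-503 and miR-351 that are made from other chromosomes are shown in the same way, because the share of each seed family that comes from the cluster is given further on.
miR-15a-5p: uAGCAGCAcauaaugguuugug
miR-15b-5p: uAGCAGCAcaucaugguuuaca
miR-16-5p: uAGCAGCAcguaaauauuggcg
miR-195a-5p: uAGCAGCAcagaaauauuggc
miR-497a-5p: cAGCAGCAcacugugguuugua
miR-125a-5p: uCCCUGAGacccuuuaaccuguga
miR-125b-5p: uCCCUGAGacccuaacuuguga
The first 8 bases of miR-322-5p are those of miR-497a-5p, and over the whole strand 15 of 22 positions are identical. The first 8 bases of miR-351-5p are those of miR-125a-5p and miR-125b-5p, but over the whole strand only 10 of 24 and 10 of 22 positions are identical.

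The precursors of 2 Mir450 hairpins are shown because they limit how well those genes could be counted. Capitals mark the mature arms.
Mir450-2: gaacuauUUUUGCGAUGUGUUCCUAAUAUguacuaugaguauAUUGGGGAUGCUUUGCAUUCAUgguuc
Mir450-1: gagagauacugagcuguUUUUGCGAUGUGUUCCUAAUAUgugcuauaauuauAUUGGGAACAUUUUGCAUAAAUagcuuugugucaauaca
Both hairpins release the same 5′ arm, miR-450a-5p, and the longest stretch they have in common is 25 bases. A read within that stretch aligns to both genes, and reads with several alignments were not assigned to a gene in the deposited tables. The 3′ arms differ, with 16 of 22 positions identical, and what was counted for Mir450-2 and Mir450-1 is limited to reads that aligned to 1 place. Mir450b shares at most 19 bases with Mir450-1 and 9 with Mir450-2 and so falls outside the 20-base rule used here. Its 3′ arm is still identical to that of Mir450-1 at 20 of 22 positions, the first 18 among them. A short read from these arms could align to both genes. The levels of Mir450-2 and Mir450-1 below are therefore uncertain, and that of Mir450b may be affected as well.

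The 7 hairpins lie on the minus strand of chromosome X within 6353 bases (mm10, GENCODE M21). Each is a gene of its own in the annotation, with the whole hairpin as its exon. In the direction of transcription they run Mir322 (ENSMUSG00000065418.1, chrX:53054255-53054349), Mir503 (ENSMUSG00000076122.1, chrX:53053984-53054054), Mir351 (ENSMUSG00000065503.1, chrX:53053255-53053353), Mir542 (ENSMUSG00000076140.1, chrX:53049403-53049487), Mir450-2 (ENSMUSG00000076399.1, chrX:53048299-53048367), Mir450-1 (ENSMUSG00000065486.1, chrX:53048154-53048244) and Mir450b (ENSMUSG00000076050.1, chrX:53047997-53048078). The gaps between neighbours are 200, 630, 3767, 1035, 54 and 75 bases, so there is a group of 3 hairpins at the 5′ end and a tight group of 3 at the 3′ end, with Mir542 nearer the second. Hairpin sequence makes up 9.32% of the span. No member overlaps another annotated transcript. The long gap holds Gm28730, a lincRNA gene on the same strand that comes within 95 bases of a hairpin. The non-coding C430049B03Rik, also on the minus strand, ends 696 bases upstream of Mir322. The nearest protein-coding genes are Plac1, 15645 bases upstream, and Hprt, 26337 bases past the other end on the plus strand.

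**Figure D1:**
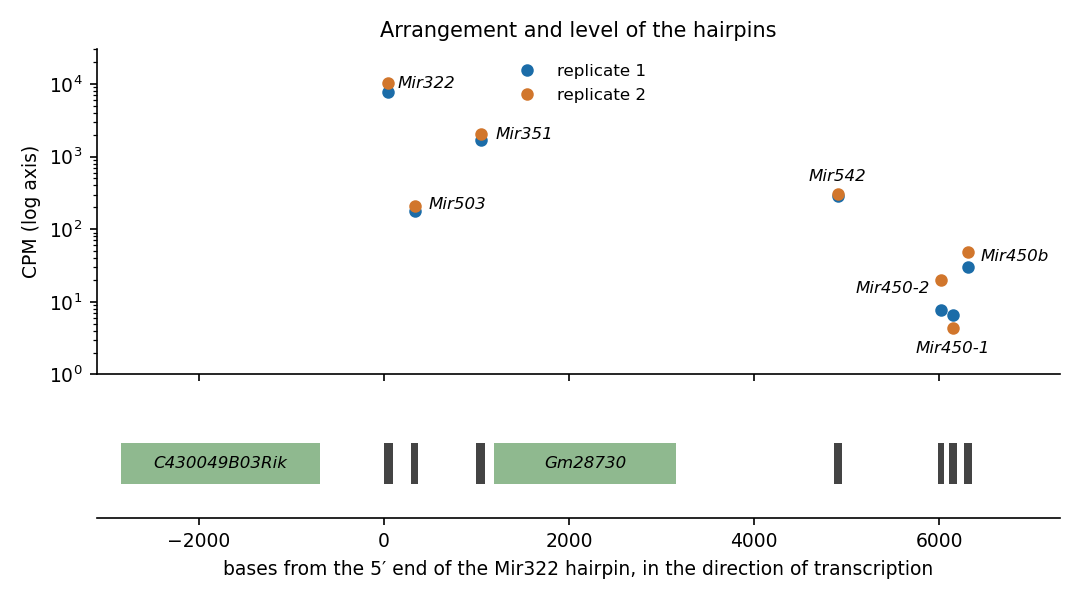
Upper panel, level of each hairpin in CPM, counts scaled to a library total of 1000000 (log axis), in both replicates against its position in bases from the 5′ end of the Mir322 hairpin; lower panel, the hairpins as dark boxes and the annotated non-coding neighbours as green boxes, to scale. Mir322 at the 5′ end has the highest level, and the 3 Mir450 hairpins at the 3′ end have the lowest.

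Gene counts on the strand of the gene totalled 2839732 in replicate 1 and 2280028 in replicate 2, which were 30.6% and 26.3% of all reads in the tables. Levels are counts divided by that total and multiplied by 1000000 (CPM), which makes a single count 0.352 CPM in replicate 1 but 0.439 CPM in replicate 2. They are not scaled by length, because a mature strand is short enough for 1 read to span it. Ratios between hairpins are ratios of reads, and how evenly different strands were turned into reads was not measured here. Multiply aligned reads, 28.8% of all reads in replicate 1 but 25.3% in replicate 2, are missing from every level. A gene whose mature strand is also made elsewhere can therefore stand too low. Ranks and shares below hold among reads that aligned to 1 place and are not places by true abundance. Detection meant at least 10 counts in each library, and 342 genes reached it. The libraries differed in miRNAs of other cell types. Muscle miRNAs, 9 in number, summed to 953 CPM in replicate 1 and to 4.39 CPM in replicate 2. Mir206 had 534 and 2.19 CPM in replicates 1 and 2, Mir499 had 288 and 1.75 CPM, and Mir208b had 125 and 0.439 CPM. None of the 9 had at least 10 counts in both libraries, so none was detected. Mir133a-1, Mir133a-2 and Mir133b, 3 of the 9, were at 0 in both. The 3 miRNAs of red blood cells summed to 643 CPM in replicate 1 and to 14488 CPM in replicate 2, and all 3 were detected. Of these, Mir451a had 469 and 13557 CPM in replicates 1 and 2 and Mir144 had 107 and 873 CPM, whereas Mir486 had 65.9 and 58.3 CPM. For replicates 1 and 2, endothelial Mir126a had 43203 and 59463 CPM, the 4 white blood cell miRNAs summed to 1331 and 1051 CPM, and the 4 neuroendocrine miRNAs, of the kind of cell found in the adrenal medulla, to 42776 and 40150 CPM. These sums hide differences between members. Of the white blood cell miRNAs, Mir223 had 132.8 and 17.5 CPM in replicates 1 and 2 and Mir150 had 659.6 and 466.7 CPM. Mir155 had 328.9 and 353.5 CPM, and Mir142 was also slightly higher in replicate 2. The neuroendocrine sum was mostly Mir375, with 39421 and 37780 CPM. Mir7b had 3101 and 2146 CPM and Mir7-1 was also lower in replicate 2, whereas Mir7-2 had 40.8 and 77.6 CPM. The part of any of these cell types in the levels of the cluster was not tested.

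All 7 members were detected, and none had a count on the opposite strand. The cluster as a whole took 28018 counts in replicate 1 and 29791 counts in replicate 2. That was 0.987% of gene counts in replicate 1 (95% Clopper-Pearson interval 0.975 to 0.998%) and 1.31% in replicate 2 (1.29 to 1.32%), with a mean of 1.15% ± 0.226 (SD, n = 2). The intervals do not overlap, and they cover counting error only, since reads without molecular identifiers are not independent molecules. The share with the muscle and blood cell miRNAs left out of the total was 0.990% in replicate 1 and 1.33% in replicate 2. In bulk tissue, fewer cells of a type and less of the RNA per cell cannot be told apart.

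Mir322 supplied most of that signal. It is the mouse counterpart of human miR-424, and in mouse myoblasts it has been reported to promote withdrawal from the cell cycle together with miR-503. Mir322 had 21822 counts, or 7685 CPM, in replicate 1 and 23749 counts, or 10416 CPM, in replicate 2. Its mean was 9050.3 ± 1932 CPM (SD, n = 2), which placed it 24th of the 2202 genes by reads that aligned to 1 place. It made up 77.9% of the cluster's counts in replicate 1 (77.4 to 78.4%) and 79.7% in replicate 2 (79.3 to 80.2%), so replicate 2 was the higher of the 2 samples by level and, slightly, by share.

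Mir351 came next. Its mature strand has the seed of miR-125, the vertebrate relative of the worm's lin-4. Mir351 had 4736 counts in replicate 1 and 4703 counts in replicate 2, that is 1668 and 2063 CPM, with a mean of 1865 ± 279 CPM (SD, n = 2) and rank 63. It stood 4.61-fold below Mir322 in replicate 1 and 5.05-fold below in replicate 2. Mir322 and Mir351 together held 94.8% of the cluster's counts in replicate 1 and 95.5% in replicate 2, and they were the 2 members among the 74 genes that exceeded 1000 CPM in both libraries.

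Mir542 and Mir503 formed a middle tier below Mir351. Mir542, whose 3p strand has been described in human cells to target the survivin mRNA, had 826 counts, or 291 CPM, in replicate 1 and 698 counts, or 306 CPM, in replicate 2 (mean 299 ± 10.8 CPM, SD, n = 2; rank 138). Mir503 had 507 counts, or 179 CPM, in replicate 1 and 473 counts, or 207 CPM, in replicate 2 (mean 193 ± 20.4 CPM, SD, n = 2; rank 157). The 2 samples lay close together for each gene, and Mir542 was above Mir503 in both. Mir503 is only 200 bases from Mir322, yet it was 43.0-fold below it in replicate 1 and 50.2-fold below in replicate 2. It was also below Mir351, by 9.34-fold in replicate 1 and 9.94-fold in replicate 2, although it lies between these 2 hairpins. With Mir322 and Mir351, these genes were the 4 members among the 173 genes above 100 CPM in both libraries.

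The Mir450 hairpins were rare. Mir450b had 86 counts, or 30.3 CPM, in replicate 1 and 112 counts, or 49.1 CPM, in replicate 2 (mean 39.7 ± 13.3 CPM, SD, n = 2; rank 232). Mir450-2 had 22 counts, or 7.75 CPM, in replicate 1 and 46 counts, or 20.2 CPM, in replicate 2 (mean 14.0 ± 8.79 CPM, SD, n = 2; rank 290). Replicate 2 was the higher for both. Mir450-1 had 19 counts, or 6.69 CPM, in replicate 1 and 10 counts, or 4.39 CPM, in replicate 2 (mean 5.54 ± 1.63 CPM, SD, n = 2; rank 337), and here replicate 1 was the higher. The 3 hairpins together gave 127 counts in replicate 1 and 168 counts in replicate 2, or 0.453% and 0.564% of the cluster.

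**Figure D2:**
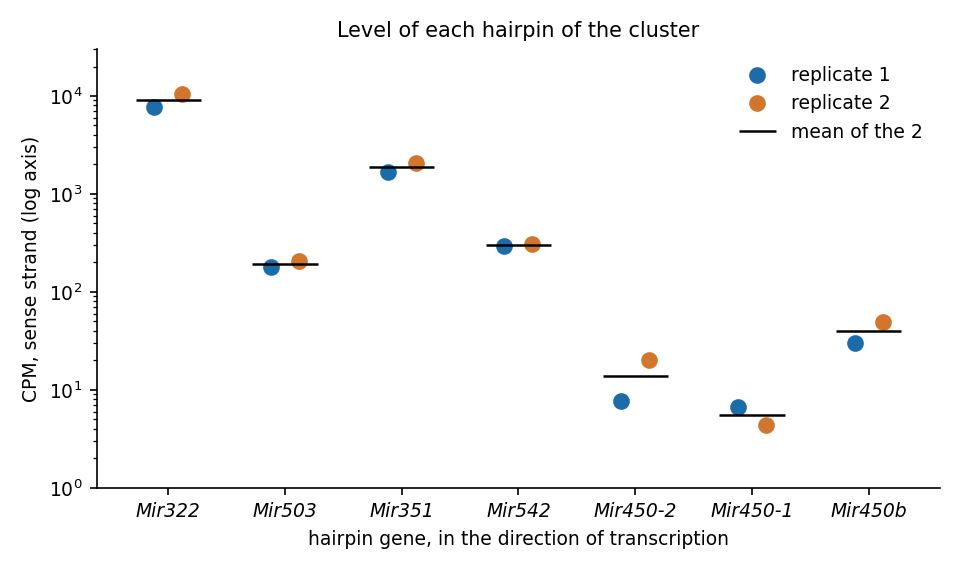
Level of each hairpin in CPM (log axis), in order along the cluster, with a point per replicate and a horizontal line at the mean of the 2 samples. The replicates lie close together for every hairpin compared with the distance between Mir322, near 9050.3 CPM, and Mir450-1, near 5.54 CPM.

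The order of the members was the same in both libraries, from Mir322 through Mir351, Mir542, Mir503, Mir450b and Mir450-2 to Mir450-1. For 5 of the 6 neighbouring pairs in that order, the means lay farther apart than the sum of the SDs. Mir450-2 and Mir450-1 did not, with means 8.42 CPM apart and SDs that sum to 10.4 CPM. Level was lower at a greater distance from the 5′ end of the cluster, with a Spearman's rho of -0.79 in each library. That is a description over 7 hairpins that share their libraries and their place in the genome, and Mir503, low for its place, and Mir450b, the last hairpin yet above both other Mir450 hairpins, depart from it. The precursors also differed in make-up. RefSeq lists 6 of the 7 hairpins, all but Mir351, so that abundant member is missing from these values. The GC content was 51.6% in Mir322, 54.9% in Mir503 and 51.8% in Mir542, against 30.5 to 36.2% in the Mir450 hairpins. Predicted folding energies were -42.9 kcal/mol for Mir322, -37.6 for Mir503 and -38.1 for Mir542. They were -26.5 kcal/mol for Mir450-2 and -31.8 for Mir450b, but -41.0 for Mir450-1, the hairpin of lowest level. These hairpins differ in length, from 69 bases in Mir450-2 to 95 in Mir322. Per base, the energies were -0.530 kcal/mol for Mir503, -0.452 for Mir322, -0.451 for Mir450-1 and -0.448 for Mir542. They were -0.388 for Mir450b and -0.384 for Mir450-2.

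The distance between the highest and the lowest hairpin was wide when set beside other clusters of the same libraries. Runs of at least 3 detected miRNA genes on 1 strand with gaps of up to 10 kb numbered 16. In the Mir322 cluster the highest mean CPM exceeded the lowest 1634-fold, or by 10.67 on the log2 scale, with 10.17 in replicate 1 and 11.21 in replicate 2. That was the widest of the 16 runs, ahead of the chromosome 12 runs that start with Mir127 (10.50) and Mir379 (9.28), while the other 15 runs had a median of 4.77. A spread of this kind can only widen as hairpins are added, and 13 of the 15 runs had fewer detected genes. The 2 runs with at least as many, those of chromosome 12, had a median of 9.89. The rank rests on the rarest hairpins. Averaged over the 2 libraries, the spread was 10.69 with all hairpins. Without hairpins that share 20 bases with another hairpin that average was 7.86, and the cluster ranked 3rd of 11 runs. With only hairpins whose counts average 50 or more it was 7.86 as well, and the cluster ranked 3rd of 12. By summed level the cluster was 7th of the 16 runs, and by the share of the sum held by its highest hairpin, 78.9%, it was 5th. The comparison of runs carries no test.

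**Figure D3:**
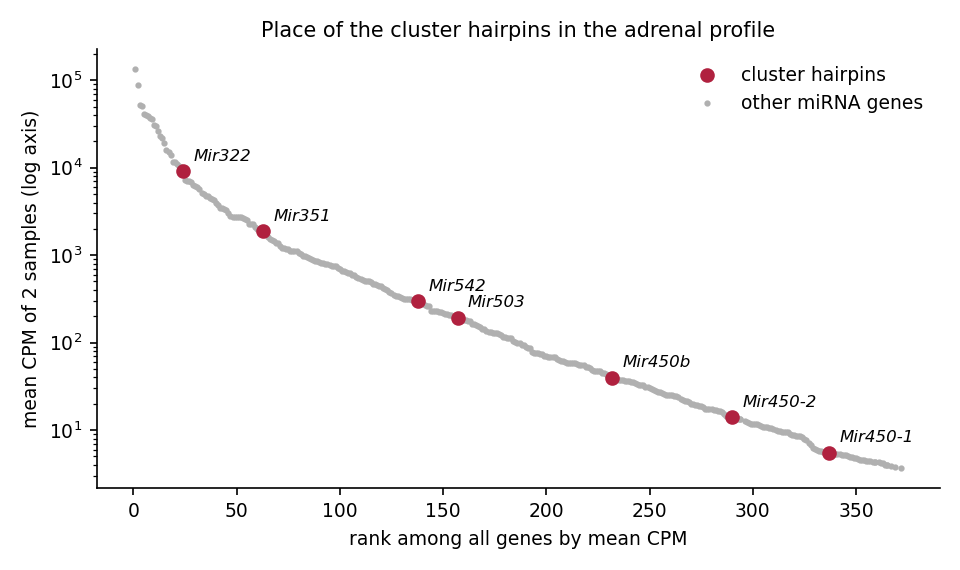
Mean CPM (log axis) of the 369 tested genes, whose counts average 10 or more, in order of rank, with the 7 cluster hairpins marked. Levels are from reads that aligned to 1 place. Mir322 lies at rank 24 and Mir351 at rank 63, and Mir450-1, at rank 337, lies near the low end.

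Among the 142 miRNA genes counted on chromosome X, 33 were detected, of which 7 are the cluster and 26 are not. The cluster held 23.8% of the counts of X-linked miRNA genes in replicate 1 (23.5 to 24.0%) and 26.6% in replicate 2 (26.3 to 26.8%), with a mean of 25.2% ± 1.96 (SD, n = 2). The median member had 193 CPM, against 127 CPM for the other detected genes of the X chromosome and 130.1 CPM for all other detected genes. The ranks on the chromosome are also by reads that aligned to 1 place. Mir322 ranked 2nd on the chromosome, below Mir652 (15114 ± 3985 CPM) and above Mir98 (4965 ± 318 CPM), a let-7 family gene. Mir351 ranked 7th, between Mir361 (2008 ± 294 CPM) and Mir221 (1439 ± 481 CPM). Mir542 was 14th, between Mir500 (344 ± 119 CPM) and Mir222 (211 ± 54.7 CPM), and Mir503 was 16th, between Mir222 and Mir421 (164 ± 9.24 CPM). Mir450b was 24th, between Mir92-2 (46.8 ± 0.493 CPM) and Mir505 (17.2 ± 5.42 CPM). Mir450-2 was 27th, between Mir5132 (14.2 ± 2.20 CPM) and Mir20b (10.7 ± 0.835 CPM), and Mir450-1 was last of the 33, below Mir363 (6.24 ± 0.140 CPM). Mir322 lay farther from both of its neighbours than the SDs sum to, as Mir542 did from Mir222 and Mir450b from Mir505, whereas every other pair of neighbours named here was closer than that (SD, n = 2 throughout).

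Over all genes, the levels nearest to those of Mir322, by Euclidean distance of log2(CPM + 1) over the 2 samples, were those of Mir30d, Mir151 and Mir29a. Mir30d had 9135 CPM in replicate 1 and 11008 CPM in replicate 2, at a distance of 0.262. Mir151 had 9399 and 11361 CPM, at 0.316, and Mir29a had 6601 and 7950 CPM, at 0.447. Each of them was higher in replicate 2, as Mir322 was. With 2 samples such a measure says little beyond likeness of level.

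The cluster was next set beside the other genes that make miRNAs with the same bases 2 to 7. Hairpins were counted whole, since the arms could not be told apart. Counts can include the 3′ arms of Mir322, Mir503 and Mir351, which have other seeds. Each family share is thus a share of hairpin reads, and the share among strands with the seed is not known. The AGCAGC family was taken as 9 listed genes, of which 8 were detected and Mir195b had no count. RefSeq gives the same bases 2 to 7 to a further 3 genes, Mir6342, Mir6353 and Mir6419, which had 0 counts in both libraries, so the shares are the same with them. Mir322 and Mir503 together held 62.3% of its counts in replicate 1 (61.8 to 62.8%) and 68.2% in replicate 2 (67.8 to 68.7%), with a mean of 65.3% ± 4.21 (SD, n = 2). In both samples the cluster held the larger part of the family's hairpin reads that aligned to 1 place, nearly all of it from Mir322. The relatives, which include the miR-15 and miR-16 genes known to repress cyclins and, in human leukaemia cells, BCL2, each had a lower level. Mir15b had 1075 and 1459 CPM in replicates 1 and 2, Mir15a 1131 and 1105 CPM, and Mir16-1 744 and 1102 CPM. Mir195a had 1124 and 501 CPM, Mir497 had 477 and 532 CPM, and Mir16-2 had 210 and 244 CPM. Mir16-1 and Mir16-2 make the same mature strand, and reads that align to both genes are left out of the summed level of the relatives, so the share of the cluster among all reads of the family is not known.

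Mir322 exceeded Mir15b 7.15-fold in replicate 1 and 7.14-fold in replicate 2, so the ratio of these 2 genes held between the samples. It did not hold for every relative. The ratio of replicate 2 over replicate 1 was 1.36 for Mir322 and Mir15b and 1.48 for Mir16-1. For Mir16-2 it was 1.17, for Mir497 1.12, for Mir15a 0.977 and for Mir195a 0.446. The 7 relatives summed to 4760 CPM in replicate 1 and 4945 CPM in replicate 2. Their sum was thus close to level between the samples, and Mir322 was the higher in the sample with the higher share.

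The CCCUGA family, taken as 4 listed genes, showed another pattern. Mir6367 and Mir6394, which RefSeq gives the same bases, had 0 counts in both libraries. Mir351 held 16.2% of its counts in replicate 1 (15.8 to 16.7%) and 36.1% in replicate 2 (35.3 to 37.0%), with a mean of 26.2% ± 14.1 (SD, n = 2). Mir351 itself was 1.24-fold higher in replicate 2. Mir125a, the highest gene of the family by reads that aligned to 1 place, had 8199 CPM in replicate 1 and 3341 CPM in replicate 2. Mir125b-1 had 229.6 and 183 CPM in replicates 1 and 2, and Mir125b-2 had 182 and 125 CPM. Mir351 stood at 0.203 of the level of Mir125a in replicate 1 and at 0.617 in replicate 2. The share therefore depends on which of the 2 samples is read. Mir125b-1 and Mir125b-2 make the same mature strand, and reads that align to both are left out of their levels.

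**Figure D4:**
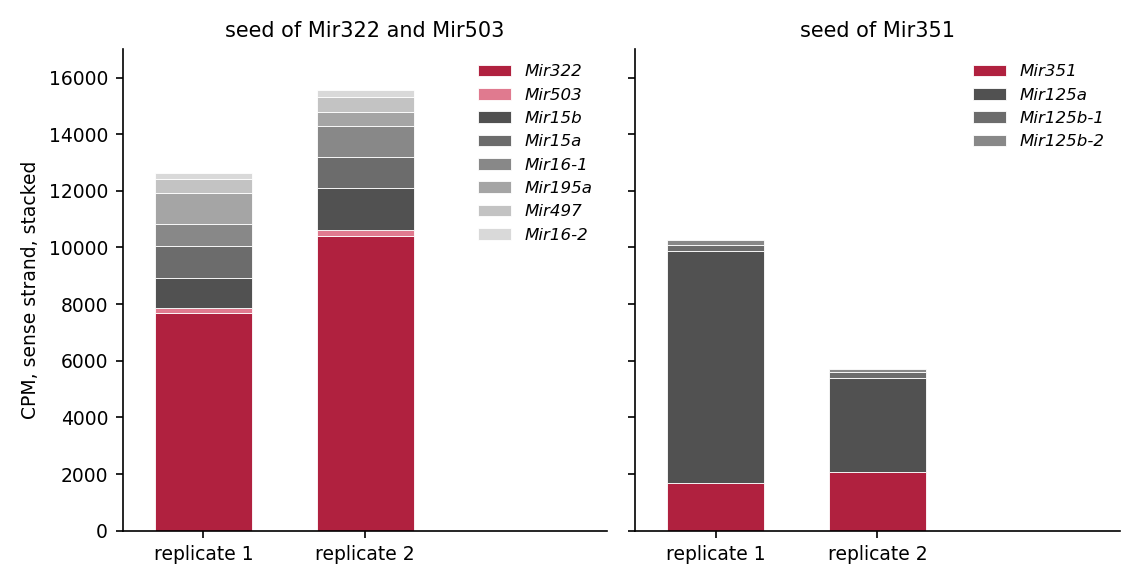
Stacked bars of the level in CPM of the detected genes that make miRNAs with the bases AGCAGC (left) or CCCUGA (right) at positions 2 to 7, for each replicate, with cluster members in red tones and other genes in grey, from reads that aligned to 1 place. Mir322 is the highest gene of the AGCAGC panel in both replicates, and Mir125a, the highest of the CCCUGA panel, has 8199 CPM in replicate 1 and 3341 CPM in replicate 2.

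The spread between the 2 libraries was examined by a two-sided exact binomial test of each gene's counts against the library totals, and p-values were adjusted after Benjamini and Hochberg over the 369 genes tested. Calls needed an adjusted p below 0.05 together with a ratio of 2-fold or more. Such a test sets library against library and not condition against condition, and it takes in counting error alone. Of the 7 members, 1 was called, and it was higher in replicate 2. Among all tested genes, 18.7% were called in either direction and 8.67% were called higher in replicate 2, so a single member is near the background. The called gene was Mir450-2, with a ratio of replicate 2 over replicate 1 of 2.60 (1.54 to 4.55) and an adjusted p of 0.000424 by the exact binomial test. It rests on 22 and 46 counts, in a gene whose 5′ arm is shared with Mir450-1. Mir450-1 went the other way, with a ratio of 0.656 (0.272 to 1.48) and an adjusted p of 0.440 by the same exact test.

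The abundant members differed by less than 2-fold. Mir322 had a ratio of 1.36 (1.33 to 1.38) with an adjusted p of 9.22e-230 by the exact binomial test, and Mir351 a ratio of 1.24 (1.19 to 1.29) with an adjusted p of 2.60e-24. Small ratios pass at this depth, and 231 of the 369 genes had an adjusted p under 0.05, or 62.6%, against 5 of the 7 members. Mir503 was the weakest of the 5: its adjusted p by the exact binomial test was 0.0323, but 0.361 with TMM scaling, 0.668 with median-of-ratios scaling and 0.0613 with no filter on low counts. The ratio was 1.16 (1.02 to 1.32) for Mir503, 1.05 (0.950 to 1.17) for Mir542 and 1.62 (1.21 to 2.17) for Mir450b. The log2 ratio was above 0 for 6 of the 7 members and for 54.2% of all tested genes, with a median of 0.31 over the members and 0.074 over all tested genes. The cluster sum had a ratio of 1.32 (1.30 to 1.35), which was 1.22 with TMM scaling and 1.18 with median-of-ratios scaling. Those scalings moved the median of all tested genes by -0.12 and -0.16 on the log2 scale. With median-of-ratios scaling, 33.8% of the calls were higher in replicate 2, against 46.4% without it. The other tested X-linked genes had a median log2 ratio of -0.10, and 4 of those 29 were called.

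**Figure D5:**
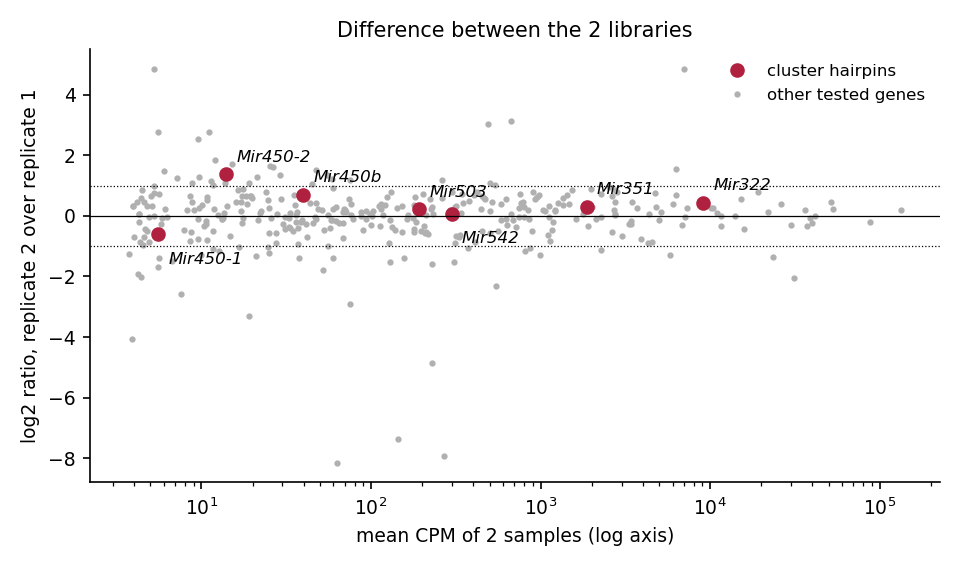
Log2 ratio of replicate 2 over replicate 1 against mean CPM (log axis) for the tested genes, with the cluster hairpins marked and dotted lines at 2-fold; the 1 tested gene with no count in replicate 2 is not drawn. Mir450-2 lies beyond the 2-fold line at 1.38, and Mir322, at 0.44, lies within it.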

How the data were processed

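For each of 2 adrenal samples the authors deposited a table of raw read counts per miRNA gene. Its assembly (mm10) and annotation (GENCODE M21) are named in the sample information that the authors deposited. The aligner and counter are not given in the sources used here. Of the columns for each strand, the one of larger total was taken as the strand of the gene. Rows that name no gene were kept out of totals: unmapped, multiply aligned, outside genes and ambiguous reads were 29.8%, 28.8%, 10.8% and 8.62e-05% of 9278190 reads in replicate 1, and 39.7%, 25.3%, 8.60% and 0% of 8659511 reads in replicate 2. All 2202 genes were matched to GENCODE M21 by identifier. Allele-specific reads of the hybrid were not analysed here, and the reference is not a hybrid one.

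CPM were computed from the sense counts. Intervals are 95% Clopper-Pearson or, for ratios, exact binomial. With no count, a level of up to 3 counts is possible, which is 1.06 CPM in replicate 1 and 1.32 CPM in replicate 2. Genes whose counts averaged 10 or more were tested with SciPy 1.17.1, and the procedure was tested on simulated data. The simulated counts held counting error alone, as the test assumes, so they cannot show how it behaves with spread between samples. Scaling alternatives used edgeR 4.0.16 (TMM) and DESeq2 1.42.0 (median of ratios). Folding used RNAfold 2.7.2. Sequences are from RefSeq. The binomial test treats reads, not samples, as its units. No exact test with the 2 samples as units could pass a threshold, and none was run.

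The genes named are all cluster hairpins, their seed relatives, the 3 genes nearest in level to Mir322 and the detected X-linked genes ranked beside each member. Mir497b was left out of the AGCAGC family, because its RefSeq mature strand has another seed. Both family lists were drawn from textbook names, and the further RefSeq genes of the same bases are named in the text. The members, lists and tests were chosen with earlier results of these data known. Liver, smooth muscle and fibroblast, and kidney and gut lists were also computed. The summed levels in replicates 1 and 2 were 3721 and 2358 CPM for Mir122, 23167 and 25516 CPM for smooth muscle and fibroblasts, and 218 and 150.4 CPM for kidney and gut.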

Additional observations from a re-analysis of the deposited data

How the results depend on the processing

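No paired analysis was possible because there is only 1 group. A level, share or spread was held near its reported value if it moved by less than 1 SD over the samples, and a count of calls if within 1.5 times. By that measure 22 values of the results that answer a comparison stayed near and 7 did not, leaving out a replicate aside. Over all reads in the tables, rows that name no gene included, the cluster had a summed level of 3230.0 (per 1000000) and a share of 0.323%, by construction of the larger total. Averaged over the 2 libraries, the spread within the cluster was 10.69 with all hairpins and 7.86 without those that share a stretch. It was also 7.86 with a mean count of at least 50. That setting was chosen after seeing the data, as were gaps of 50 kb and the wider seed families. With a mean count of at least 100, 4 members were tested, Mir450-2 not among them, and 0 were called. Over all genes, 33 of the 234 tested were called there, 12 of them higher in replicate 2. The main setting called 69 of 369, 32 of them higher in replicate 2. Mir542 reversed to a log2 ratio of -0.042 with TMM scaling and -0.091 with median-of-ratios scaling, and it passed the threshold in neither. Mir450-2 was the 1 member called under both scalings, with unstranded counts and with no filter on low counts. For single genes, 48 values stayed near, or kept their direction and call, and 10 did not, besides the 2 for Mir542; the 10 are levels under all reads or unstranded counts, whose totals differ. Mir450-2 and the CCCUGA share have wide SDs, so the measure is loose for them. Leaving out either of 2 samples always stays within 1 SD of their mean and tests nothing; it gave a cluster share of 0.987 to 1.31%, a CCCUGA share of 16.2 to 36.1% and a spread of 10.17 to 11.21. It leaves no comparison between the libraries. Low counts limit the Mir450 hairpins most.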
